A study of Mus musculus with 12 samples.

Results

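The keratin gene family was followed across RNA-seq libraries of the mouse first mandibular molar germ at postnatal day 4. Members were the genes of the deposited table whose symbol is Krt followed by digits and at most 1 lower-case letter. The table lists 25899 genes, 50 symbols matched, and Krt74 was left out because GENCODE M21 annotates it as a transcribed unitary pseudogene. That left 49 keratin genes, 28 of type I and 21 of type II. On GRCm38, 27 type I genes lie on chromosome 11 between 99232761 and 100269871. All 21 type II genes and the type I gene Krt18 lie on chromosome 15 between 101347444 and 102032027.

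Total RNA came from the apical part of the tooth germ, the end at which the root forms, in C57BL/6 mice. Each of 2 genotypes gave 6 libraries, numbered 5 to 10. Nfic-/- mice (null) were set against Nfic+/- littermates (heterozygous), so the control group also carried 1 altered copy of Nfic and no wild-type group was analysed here. How the allele was made, and whether a library came from 1 animal, is not given in the sources used here, so p-values measure the spread between libraries. Nfic encodes a nuclear factor I transcription factor, and the series title links it to Hedgehog signalling in root development.

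Keratins build the intermediate filaments of epithelial cells. A type I and a type II chain pair to form the filament, and pairs mark kinds of epithelium: Krt5 with Krt14 in basal layers, Krt8 with Krt18 in simple epithelium, Krt1 with Krt10 in differentiating epidermis and Krt4 with Krt13 in lining mucosa. Filaments are anchored at desmosomes and hemidesmosomes. In a molar germ the epithelium is the enamel organ and the root sheath that grows from its apical rim, while the pulp and follicle are mesenchyme, which uses vimentin in place of keratins.

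Depth read from the values was 70.2 to 96.4 M reads per library, so 1 read in a transcript of 1 kb equalled 0.0104 to 0.0142 RPKM (reads per kilobase of transcript and per 1 M reads). The enamel gene Amelx alone took 3.40% to 13.5% of gene reads. The targeted gene Nfic had a level of 16.8 ± 4.42 RPKM with 1 intact copy and of 11.4 ± 3.02 RPKM with none (SD, n = 6 each), and the groups overlapped. Its difference was -0.52 in log2(RPKM + 1) (SE 0.178, exact 2-sided permutation p = 0.0303 over 924 assignments, limma adjusted p = 0.934), and where in the gene its remaining reads lie was not analysed here. Libraries 8 and 9 of both genotypes stood apart. There 20 of 22 genes of a list of intestinal epithelium markers were higher than in each of the other 8 libraries, and the list summed to 182 to 247 RPKM against 3.25 to 9.26 RPKM elsewhere. In null library 7, 13 of 19 genes of a list of stratified and cornifying epithelium markers had their highest value. The share over all genes was not computed. The keratin median and the differences of some keratins are given with and without these libraries below. Krt5, Krt14, Krt16 and Krt73 were also highest in null library 7, and their differences with only libraries 7 left out are not given. Counts over the marker lists use all libraries.

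Promoter windows from RefSeq (GRCm38.p6), 250 bases before to 50 bases after the start, matched 34 of the 49 keratins, 31 of them within 100 bases of the annotated gene start. The 120 bases before the start are shown for the most abundant member and for 1 member of each of 2 groups of keratins that varied between libraries. Capitals mark the letters TATAAA and ATAAAA, which overlap in Krt20. All 3 genes are on the minus strand, and the sequences read 5′ to 3′ along the gene.
Krt5, basal keratin, chr15:101712906-101713025: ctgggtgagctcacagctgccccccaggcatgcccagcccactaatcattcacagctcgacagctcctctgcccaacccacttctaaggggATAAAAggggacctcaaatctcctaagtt
Krt20, intestinal keratin, chr11:99438154-99438273: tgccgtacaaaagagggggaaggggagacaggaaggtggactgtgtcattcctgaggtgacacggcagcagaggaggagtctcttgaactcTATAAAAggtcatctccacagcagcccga
Krt13, mucosal keratin, chr11:100121567-100121686: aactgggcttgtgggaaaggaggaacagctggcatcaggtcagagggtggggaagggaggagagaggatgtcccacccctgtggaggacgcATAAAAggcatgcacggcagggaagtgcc
ATAAAA began 29 bases before the start in Krt5 and Krt13 and 28 bases before it in Krt20. Searched on both strands of the 300-base window, TATAAA occurred in 17 of 31 keratins (54.8%) and in 14.2% of 27025 promoters. ATAAAA, a search added after these sequences were seen and able to overlap TATAAA, occurred in 19 of 31 (61.3%) against 19.1%. TTGGC, the half-site letters bound by nuclear factor I proteins, occurred in 20 of 31 (64.5%) against 47.0%. Of the genes shown, Krt13 has 1 TTGGC match in its window, and Krt5 and Krt20 have 0. The 31 leave out Krt14, Krt16, Krt17 and Krt80, and they include keratins without a read in any library, such as Krt31. All these matches describe letters and not bound sites.

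The basal keratins Krt5 and Krt14, with the appendage keratin Krt17, made up most of the family's RNA. Together they made up 91.3% to 95.5% of all keratin RPKM in each library. A mean of 1 RPKM or more over the 12 libraries was reached by 20 keratins, 11 of type I and 9 of type II, and only these were tested. Krt20 and Krt19 reached that mean only through libraries 8 and 9, and Krt4 only through null library 7. They stay among the 20 in the counts and medians below. Between 12 and 22 keratins reached 1 RPKM in a single library. The order at the top was stable: Krt5 exceeded Krt14 in 11 of 12 libraries, Krt14 exceeded Krt17 in 12 of 12, and Krt17 exceeded Krt80 in 12 of 12. Krt80 exceeded Krt6a in 12 of 12, and Krt6a could not be ordered against Krt16, which it exceeded in 8 of 12. Krt16 exceeded Krt10 in 12 of 12, and none of the 13 neighbouring pairs that follow in that order was ranked the same way in all 12 libraries. Levels are per length in RPKM, but the annotation behind the lengths is not given and some members share sequence. Orders between genes carry that uncertainty.

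**Figure D1:**
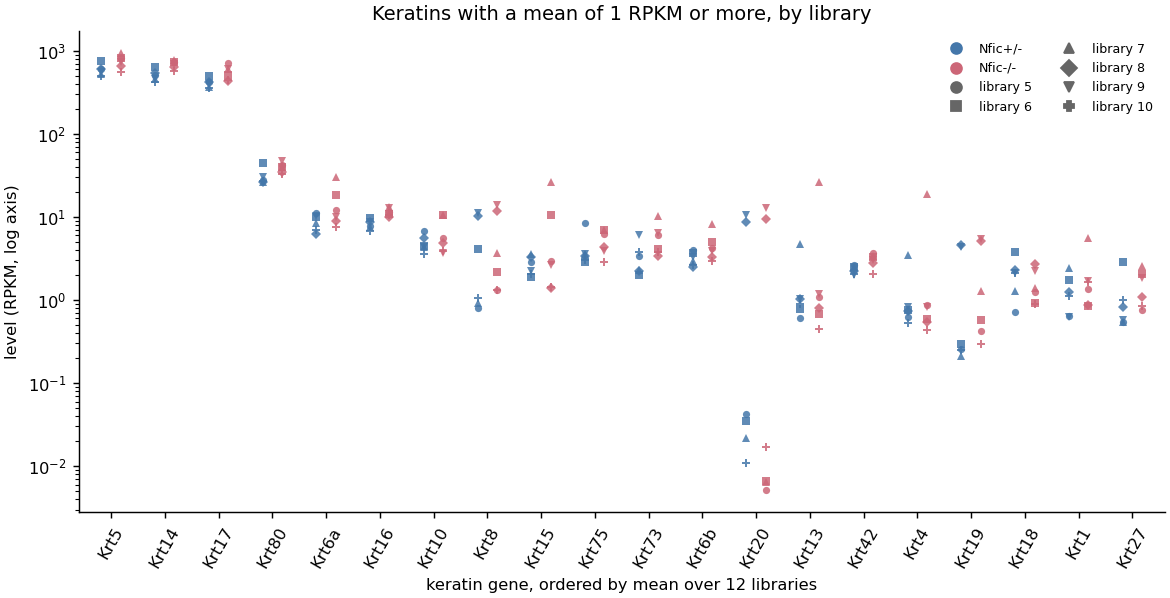
Level in RPKM (log axis) of the 20 keratins with a mean of 1 RPKM or more, one point per library, with Nfic+/- in blue, Nfic-/- in red and the library number as the marker shape. Krt5, Krt14 and Krt17 lie at 356 RPKM or more in every library, while Krt20 lies at 8.83 to 12.9 RPKM in libraries 8 and 9 and at 0.042 RPKM or less in the others, where libraries without a read are drawn at the table's floor of 0.9 reads.

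No keratin passed the test between genotypes, although 19 of 20 had a difference above 0, or 18 of 20 when libraries were rescaled to a common sum of RPKM (TPM-like scaling). With limma on log2(RPKM + 1) and Benjamini-Hochberg adjustment over 12094 genes, 0 of 20 keratins passed an adjusted p of 0.05, and 0% of all genes did. The smallest adjusted p was 0.934 for keratins and for all genes. The median keratin difference, null minus heterozygous, was 0.34 on the log2(RPKM + 1) scale, against -0.0028 over all genes. Over all genes 48.9% had a difference above 0. At an unadjusted p under 0.05 there were 7 keratins higher and 0 lower, where 2.62% of all genes were higher and 2.72% lower. The count of 7 became 4 under TPM-like scaling, 5 under scaling without 3 enamel genes, 6 under median scaling and 1 without libraries 7, 8 and 9. The 7 were Krt16, Krt14, Krt17, Krt80, Krt42, Krt5 and Krt73. Exact permutation over all 924 label assignments called 0 genes. Its smallest possible p of 0.00216 leaves little room for a call after adjustment over 12094 genes, so this count adds little to that of limma. It gave 6 keratins at an unadjusted p under 0.05, and the share over all genes was not computed.

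Within libraries 5 to 7 the keratin median was 0.48 with 18 of 20 members above 0, and within libraries 8 to 10 it was 0.18 with 15 of 20 above 0. Numbers after the letter S in the column names repeat between these sets but never within one, so they were read as 2 sets of 3 libraries per genotype. No label names a batch, and other splits would also fit these numbers. Without libraries 8 and 9 the median was 0.42, and without both libraries 7 it was 0.20. Without libraries 7, 8 and 9 it was 0.21, with 14 of 20 above 0. The 20 are the same genes there, although Krt20 lay at 0.042 RPKM or less in the libraries that remain. Where each library was weighted by its own estimated spread, 3 keratins passed, Krt14, Krt16 and Krt80, each with a limma adjusted p of 0.0465. That fit called 17 of all genes. In the other 31 alternatives no keratin passed.

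**Figure D2:**
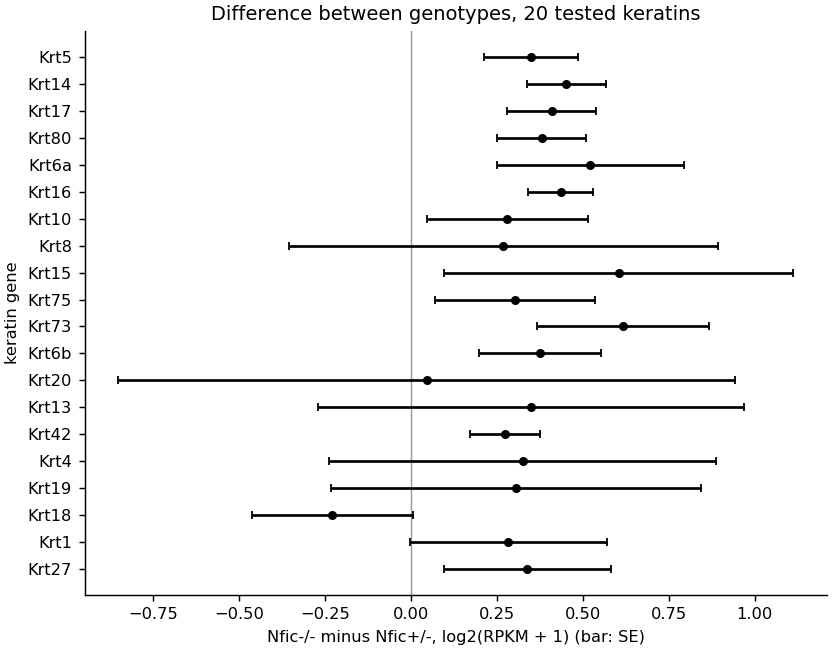
Difference between genotypes for the 20 tested keratins, null minus heterozygous in log2(RPKM + 1), with the standard error as bars and genes ordered by mean level. The points lie from -0.23 for Krt18 to 0.62 for Krt73, and the short bars belong to the abundant Krt5, Krt14 and Krt17 and to Krt16, Krt80 and Krt42.

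Among the basal keratins, Krt5 and Krt14 form the pair that anchors basal cells. Krt5 (chr15:101707070-101712898) ran from 496 to 758 RPKM with a median of 580 RPKM in heterozygous libraries, and from 564 to 941 RPKM with a median of 781 RPKM in null libraries. Null libraries 5, 6 and 7 lay above every heterozygous library, while null libraries 8, 9 and 10 lay within the heterozygous range. The means were 592 ± 93.4 and 758 ± 135 RPKM (SD, n = 6 each), a log2 difference of 0.35 (SE 0.137, limma adjusted p = 0.934). Krt14 (chr11:100203162-100207548) ran from 417 to 636 RPKM with a median of 488 RPKM in heterozygous libraries and from 568 to 776 RPKM with a median of 712 RPKM in null libraries. Its groups overlapped through heterozygous library 6, which lay above the lowest null library, 10. The means were 507 ± 77.3 and 691 ± 75.6 RPKM (SD, n = 6 each), a log2 difference of 0.45 (SE 0.114, limma adjusted p = 0.934), with 0.49 within libraries 5 to 7 and 0.42 within libraries 8 to 10.

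Krt15, the other basal type I chain, is enriched in stem cell niches of stratified epithelium. It ran from 1.88 to 3.58 RPKM in heterozygous libraries (median 2.56 RPKM) and from 1.38 to 26.3 RPKM in null libraries (median 2.80 RPKM). Null libraries 7 (26.3 RPKM) and 6 (10.6 RPKM) were high, and the other 4 null libraries lay between 1.38 and 2.99 RPKM. Its log2 difference of 0.60 (SE 0.507, limma adjusted p = 1) became 0.21 without libraries 7 and was -0.33 in libraries 8 to 10.

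The keratins of appendages and stressed epithelium were led by Krt17. Krt17 (chr11:100256217-100261029), a type I keratin of appendage epithelium that is induced on wounding, ran from 356 to 503 RPKM with a median of 407 RPKM in heterozygous libraries. In null libraries it ran from 436 to 707 RPKM with a median of 552 RPKM. Null libraries 5, 7 and 9 lay clearly above every heterozygous library, null library 6 by a small margin, and null libraries 8 and 10 within the heterozygous range. The means were 410 ± 52.6 and 549 ± 105 RPKM (SD, n = 6 each), a log2 difference of 0.41 (SE 0.130, limma adjusted p = 0.934).

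Krt16 (chr11:100246091-100248902), a wound-induced type I keratin, was the only tested keratin whose groups did not overlap. It ran from 6.75 to 9.85 RPKM (median 8.21 RPKM) in heterozygous libraries and from 10.1 to 13.4 RPKM (median 11.1 RPKM) in null libraries. Every null library was above every heterozygous library. Over all genes 0.124% had all null libraries above and 0.0331% had all null libraries below, against 1 of 20 keratins. The means were 8.25 ± 1.07 and 11.5 ± 1.33 RPKM (SD, n = 6 each), a log2 difference of 0.44 (SE 0.0943, limma adjusted p = 0.934). The exact 2-sided permutation p of 0.00216 is the smallest that 6 against 6 libraries can give, and its adjusted value was 1. Within libraries 5 to 7 it differed by 0.45, and within libraries 8 to 10 by 0.42. When libraries were rescaled to a common median, or by TPM-like scaling, the Krt16 groups overlapped.

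Krt16 shares sequence with other genes. Of its 50-base windows, 37.6% occur in another gene's transcripts, 25.2% in Gm11597 and 12.4% in Krt14, and 11.01% of the Krt14 windows occur in Krt16. The longest run of coding sequence common to Krt14 and Krt16 is 134 bases in exon 1 of each, at chr11:100207017-100207150 in Krt14 and chr11:100248476-100248609 in Krt16, both on the minus strand. It is shown because a read that lies wholly inside it matches both genes.
Krt14 and Krt16, shared coding run: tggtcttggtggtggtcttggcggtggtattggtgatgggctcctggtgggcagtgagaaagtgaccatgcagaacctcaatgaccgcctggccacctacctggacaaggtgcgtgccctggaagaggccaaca
The level of Krt16 was 0.0148 to 0.0189 of that of Krt14 in every library, with 0.0164 ± 0.00133 in heterozygous and 0.0167 ± 0.00157 in null libraries (SD, n = 6 each). How the authors assigned reads that match both genes is not given in the sources used here, and the part of such reads in the Krt16 values was not tested.

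Krt6a and Krt6b are near-identical type II genes induced in stressed epithelium, and they share 44.5% of the Krt6b windows, so their split is uncertain. Krt6a ran from 6.24 to 11.3 RPKM (median 9.11 RPKM) in heterozygous libraries and from 7.52 to 29.9 RPKM (median 11.02 RPKM) in null libraries. Null libraries 7 (29.9 RPKM), 6 (18.5 RPKM) and 5 (12.2 RPKM) lay above the heterozygous range. Its log2 difference was 0.52 (SE 0.272, limma adjusted p = 0.959), or 0.28 without libraries 7. Within libraries 5 to 7 it came to 0.89, against 0.16 within libraries 8 to 10. Krt6b ran from 2.53 to 3.98 RPKM and from 2.97 to 8.16 RPKM, again highest in null library 7, with a log2 difference of 0.38 (SE 0.177), or 0.21 without libraries 7. The ratio of Krt6b to Krt6a stayed between 0.271 and 0.406 over all libraries. Krt75, a type II keratin of the hair follicle companion layer, ran from 2.86 to 8.42 RPKM in heterozygous and from 2.89 to 7.01 RPKM in null libraries, with heterozygous library 5 the highest of all. Its log2 difference of 0.30 (SE 0.232, limma adjusted p = 1) was 0.49 without that library, 0.50 within libraries 5 to 7 and 0.11 within libraries 8 to 10.

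**Figure D3:**
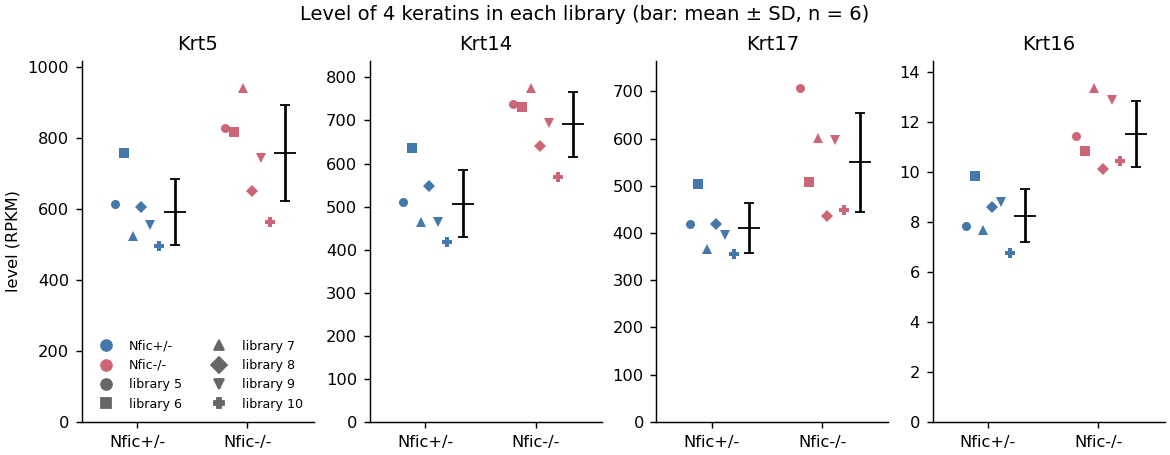
Level in RPKM of Krt5, Krt14, Krt17 and Krt16 in each library by genotype, with marker shape for library number and the group mean ± SD (n = 6) at the right of each group. Only for Krt16 do all null libraries, 10.1 to 13.4 RPKM, lie above all heterozygous libraries, 6.75 to 9.85 RPKM.

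The ratios between the abundant keratins were set side by side for the genotypes, without a test. Krt14 per Krt5 was 0.857 ± 0.0300 in heterozygous and 0.922 ± 0.0671 in null libraries, and Krt17 per Krt14 was 0.812 ± 0.0358 and 0.793 ± 0.105 (SD, n = 6 each). The groups overlapped in both ratios. Summed type I RPKM was 1.46 ± 0.0437 times summed type II RPKM in heterozygous and 1.54 ± 0.120 times in null libraries (SD, n = 6 each). Summed over all 49 members, keratins came to 1337 to 1998 RPKM in heterozygous and 1657 to 2538 RPKM in null libraries. That was 0.596% ± 0.102 and 0.750% ± 0.122 of all RPKM (SD, n = 6 each), with overlapping ranges.

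**Figure D4:**
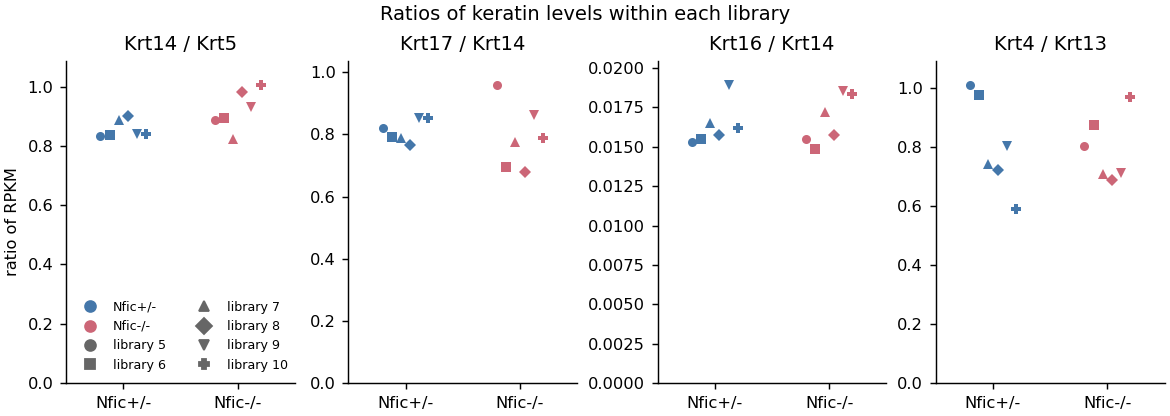
Ratio of RPKM between 4 pairs of keratins within each library, with Nfic+/- in blue, Nfic-/- in red and marker shape for library number. The ratio of Krt16 to Krt14 lies between 0.0148 and 0.0189 and that of Krt4 to Krt13 between 0.591 and 1.01 in all 12 libraries, with both genotypes in the same range.

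Krt80, Krt42 and Krt73 belong to junctions, nail and hair sheath, and each had an unadjusted p under 0.05. Krt80 (chr15:101347444-101370162), a type II keratin found near cell junctions, ran from 26.1 to 44.9 RPKM (median 27.8 RPKM) in heterozygous and from 33.3 to 46.8 RPKM (median 39.9 RPKM) in null libraries. Heterozygous library 6 was the 1 control above 30.1 RPKM and the only one inside the null range. The log2 difference was 0.38 (SE 0.130, limma adjusted p = 0.934), or 0.34 in libraries 5 to 7 and 0.43 in libraries 8 to 10, but 0.23 without libraries 7, 8 and 9. Krt42, a type I keratin of the nail, ran from 2.03 to 2.66 RPKM and from 2.08 to 3.64 RPKM, with null library 10 the only null library inside the control range. Its log2 difference was 0.27 (SE 0.103, limma adjusted p = 0.934). Krt73, a type II keratin of the inner root sheath of hair, ran from 2.01 to 6.14 RPKM and from 3.40 to 10.1 RPKM with wide overlap. Its log2 difference was 0.62 (SE 0.250, limma adjusted p = 0.934), but 1.07 in libraries 5 to 7 and 0.16 in libraries 8 to 10. Krt27, a type I keratin of the same sheath, ran from 0.537 to 2.86 RPKM and from 0.756 to 2.60 RPKM. Its log2 difference was 0.34 (SE 0.243, limma adjusted p = 1), and 0.16 without libraries 7.

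The simple epithelial keratins Krt20, Krt8 and Krt19 varied with library number. Krt20, a type I keratin of intestinal and urothelial lining cells, stood at 8.83 and 10.5 RPKM in heterozygous libraries 8 and 9 and at 9.52 and 12.9 RPKM in null libraries 8 and 9. In the other 8 libraries it lay at 0.042 RPKM or less, and 2 of these held no read. Krt8, the simple epithelial type II chain, stood at 10.4, 11.3, 11.9 and 13.9 RPKM in the same 4 libraries and between 0.811 and 4.09 RPKM elsewhere. Krt19, a small type I chain of simple and ductal epithelium, stood at 4.57, 4.31, 5.09 and 5.46 RPKM there and between 0.213 and 1.28 RPKM elsewhere. Both genotypes were high in these libraries. Between genotypes the 3 genes had log2 differences of 0.05 (SE 0.896), 0.27 (SE 0.623) and 0.31 (SE 0.537) and a limma adjusted p of 1 each. These SEs include the spread between library numbers, and SEs with library number as a block are given in the last section. Without libraries 8 and 9 the differences were -0.03, 0.29 and 0.36.

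Krt18, the usual type I partner of Krt8, shared that pattern only in part. It ran from 0.726 to 3.81 RPKM in heterozygous and from 0.890 to 2.70 RPKM in null libraries. In the 4 libraries numbered 8 and 9 it stood at 2.14 to 2.70 RPKM. Heterozygous library 6 was higher at 3.81 RPKM, and the remaining libraries lay between 0.726 and 2.10 RPKM. Krt18 per Krt8 was 0.162 to 0.227 in those 4 libraries and 0.373 to 2.01 in the others. It was the only tested keratin with a difference below 0, -0.23 on the log2 scale (SE 0.235, limma adjusted p = 1), or -0.0087 without libraries 6 and -0.55 without libraries 7, 8 and 9. Of the Krt8 windows 26.9% occur in another gene, so its level carries that uncertainty.

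Intestinal markers moved with Krt20, Krt8 and Krt19. The intestinal fatty acid binding protein gene Fabp2 stood at 59.6 to 69.4 RPKM in libraries 8 and 9 and at 0.032 RPKM or less elsewhere. Vil1, the gene of a microvillus actin-bundling protein, stood at 6.08 to 8.42 RPKM there and at 0.042 RPKM or less elsewhere. Cdx2, the intestinal homeobox gene, stood at 0.720 to 0.872 RPKM there and at 0.0057 RPKM or less elsewhere. Their part in the keratin values was not tested. The basal keratins did not follow these libraries, since Krt5 was 554 to 744 RPKM in them and 496 to 941 RPKM in the others.

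The mucosal pair varied with library 7. Krt13, the type I chain of lining mucosa, stood at 26.6 RPKM in null library 7 and 4.76 RPKM in heterozygous library 7, and between 0.444 and 1.17 RPKM in the other 10 libraries. Krt4, its type II partner, stood at 18.9 and 3.53 RPKM in the same libraries and between 0.431 and 0.877 RPKM in the others. Krt4 per Krt13 kept between 0.591 and 1.01 over all 12 libraries, although both genes spanned more than 1 order of magnitude. The log2 differences of 0.35 (SE 0.619) for Krt13 and 0.32 (SE 0.561) for Krt4 were -0.03 and -0.04 without libraries 7, with a limma adjusted p of 1 each with all libraries.

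Null library 7 held the highest value of 19 of the 39 keratins that had at least 3 reads in some library. It also held that of 10 of the 20 tested, and the share over all genes was not computed. Some led by little, such as Krt14 at 776 RPKM against 737 RPKM in null library 5. Besides Krt13, Krt4, Krt15 and Krt6a, those highest in null library 7 include Krt1 (5.59 RPKM against 0.632 to 2.42 RPKM in the other libraries). The Krt1 log2 difference of 0.28 (SE 0.286, limma adjusted p = 1) was 0.027 without null library 7 and 0.15 without libraries 7. Krt10, the suprabasal epidermal partner of Krt1, ran from 3.57 to 6.79 RPKM in heterozygous and from 3.64 to 10.6 RPKM in null libraries, highest in null libraries 6 and 7. Its log2 difference was 0.28 (SE 0.233, limma adjusted p = 1), or 0.11 without libraries 7. Cornification markers were also highest in null library 7, with Sprr3 at 5.34 RPKM, Krtdap at 5.003 RPKM and Calm4 at 5.93 RPKM, against at most 0.820, 1.02 and 1.16 RPKM elsewhere. The terminal markers Ivl (0.179 RPKM) and Flg (0.119 RPKM) were low even there. The whole list summed to 96.3 RPKM in null library 7 and to 85.6 and 83.0 RPKM in null libraries 8 and 9. Sums were 48.1 to 63.3 RPKM in the other null libraries and 39.7 to 59.1 RPKM in heterozygous libraries. Of these sums Lgals7 alone gave 44.4 and 49.2 RPKM in null libraries 8 and 9, against 14.7 RPKM in null library 7. Sprr3, Krtdap and Calm4 stood at 0.314 RPKM or less in null libraries 8 and 9. The part of the list in the keratin values was not tested.

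**Figure D5:**
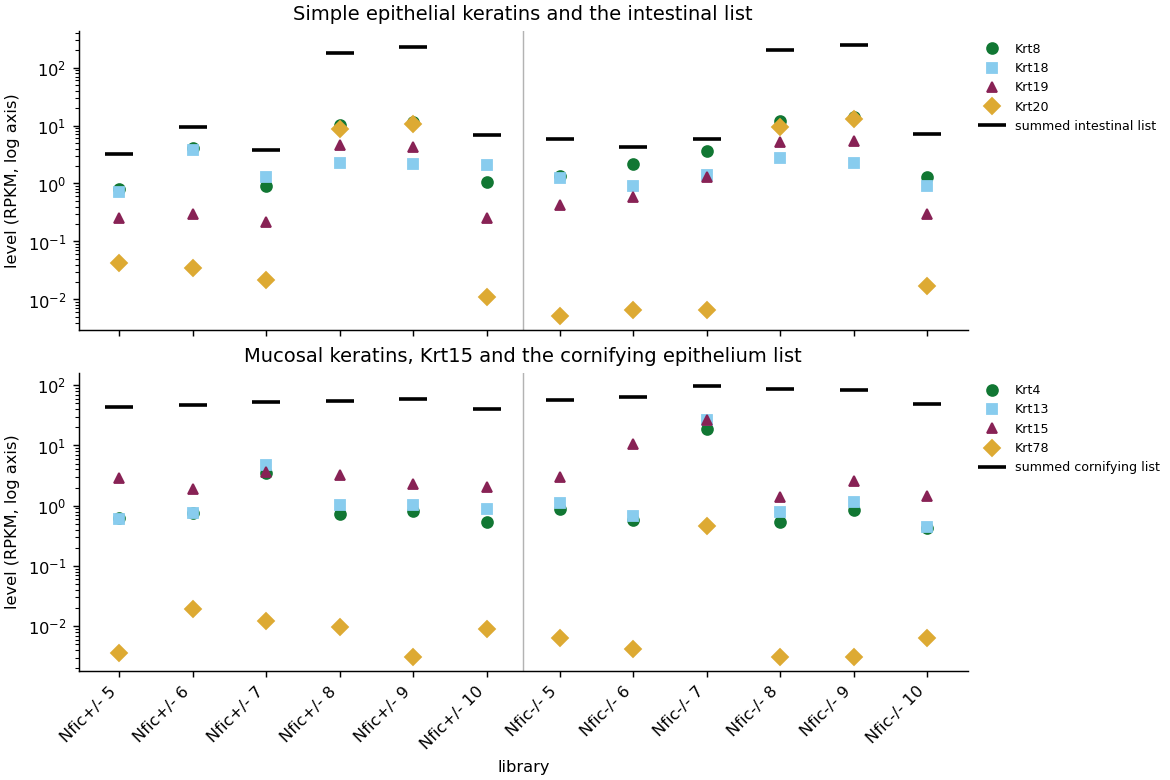
Level in RPKM (log axis) of simple epithelial keratins with the summed intestinal list (top) and of mucosal keratins, Krt15 and Krt78 with the summed cornifying list (bottom) in each of 12 libraries, where a library without a read is drawn at the floor of 0.9 reads. Krt20, Krt8 and Krt19 are high in libraries 8 and 9 of both genotypes, and Krt4, Krt13 and Krt15 are highest in null library 7.

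Keratins below a mean of 1 RPKM numbered 29, and no test was made on them. The 5 with the highest value in any library were Krt79, Krt7, Krt222, Krt23 and Krt82. Krt79, a type II keratin of the follicle opening and sebaceous duct, reached 3.51 RPKM in null library 7. It ran from 0.146 to 0.390 RPKM in the other null libraries and from 0.0673 to 0.502 RPKM in heterozygous libraries. Krt7, a type II keratin of ducts and simple epithelium, reached 1.87 RPKM in null library 7 and lay at 0.200 RPKM or more in all libraries. Krt222 differed in pattern: it ran from 0.622 to 1.30 RPKM in heterozygous libraries (median 0.957 RPKM) and from 0.434 to 0.868 RPKM in null libraries (median 0.537 RPKM). Krt23 reached 1.0 RPKM in null library 7. It ran from 0.028 to 0.055 RPKM in the other null libraries and was under 0.1 RPKM in every heterozygous library. Krt82, a hair cuticle keratin, ran from 0.184 to 0.717 RPKM and from 0.464 to 0.800 RPKM, with null library 5 the highest.

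Hair shaft keratins were low. None of 14 hair cortex and cuticle keratins reached the mean of 1 RPKM. No read was found in any library for Krt31, Krt32 and Krt33b, which allows at most 0.0248 to 0.0270 RPKM at 3 reads. A further 7 keratins, Krt2, Krt12, Krt33a, Krt34, Krt39, Krt40 and Krt81, never had more than 2 reads in a library. Among these Krt2 belongs to upper epidermis and Krt12 to cornea. The remaining members under the limit were Krt9, Krt24, Krt25, Krt26, Krt28, Krt35, Krt36, Krt71, Krt76, Krt77, Krt78, Krt83, Krt84 and Krt86, each under 0.5 RPKM in every library. Krt26 (0.154 RPKM), Krt78 (0.453 RPKM) and Krt24 (0.495 RPKM) had their highest values in null library 7. Hair cortex keratins share long stretches, for example 35.6% of Krt86 windows with Krt81, so reads of single members are uncertain.

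Genes outside the family that anchor keratin filaments stood in the same direction but passed no test. Of 17 tested desmosome, hemidesmosome and plakin genes 16 had a difference above 0 (15 to 17 under the other scalings), with a median of 0.22, 4 at an unadjusted p under 0.05 and 0 called. Col17a1, a hemidesmosomal collagen, stood at 90.9 ± 7.82 and 110 ± 9.48 RPKM in heterozygous and null libraries (SD, n = 6 each), a log2 difference of 0.27 (SE 0.0824). Evpl, which encodes the plakin envoplakin, differed by 0.27 (SE 0.0924) and Dsg1a, a desmosomal cadherin, by 0.35 (SE 0.123). Of 11 tested epithelial transcription factor genes 8 were above 0 (7 to 9 under the other scalings), with a median of 0.18 and 0 called. Trp63, the p63 regulator of basal keratinocytes, stood at 27.4 ± 4.14 and 32.9 ± 6.86 RPKM (SD, n = 6 each).

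Genes that modify or bind keratins were mixed. Of 10 tested, 8 had a difference above 0 (6 to 9 under the other scalings), with a median of 0.10 and 0 called. The 14-3-3 protein gene Sfn differed by 0.40 (SE 0.173) and Trim29 by 0.40 (SE 0.175). Tgm1, the transglutaminase that cross-links the cornified envelope, stood the other way at 3.93 ± 1.07 and 2.73 ± 0.865 RPKM (SD, n = 6 each), a log2 difference of -0.40 (SE 0.165, limma adjusted p = 0.934).

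The mesenchymal and neural intermediate filament genes had differences below 0. All 3 that were tested did, with a median of -0.55, and all 3 had an unadjusted p under 0.05 without passing the adjusted threshold. Vim, the vimentin gene of mesenchyme, had 258 ± 53.1 RPKM in the control group and 185 ± 76.7 RPKM in the null group (SD, n = 6 each), with Nes differing by -0.58 (SE 0.243) and Synm by -0.38 (SE 0.152). Of the 3 nuclear lamin genes, which every cell type carries, 1 was above 0, with a median of -0.04.

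Markers of other tissues were set beside the keratins. Of 17 tested epithelial markers that are not keratins 17 had a difference above 0 (16 under TPM-like scaling). Their median was 0.29, with 7 at an unadjusted p under 0.05 and 0 called. Among them Cldn7 stood at 5.12 to 6.81 RPKM in libraries 8 and 9 and at 0.097 RPKM or less elsewhere. The count without libraries 8 and 9 was not computed. The whole list of 18 summed to 927 to 1242 RPKM in heterozygous and 1210 to 1635 RPKM in null libraries. Cd24a, a cell surface gene of immature epithelium, stood at 411 ± 80.5 and 543 ± 57.8 RPKM (SD, n = 6 each). Of 12 dental mesenchyme and connective tissue markers 0 were above 0, with a median of -0.55 and 7 at an unadjusted p under 0.05. Msx1, a mesenchymal homeobox gene, stood at 38.2 ± 10.2 and 24.5 ± 15.5 RPKM (SD, n = 6 each). All 6 endothelial markers and 4 of 4 tested leukocyte markers were below 0, and 0 of 8 salivary gland markers reached the tested level. Of 7 tested enamel genes 5 were above 0, with a median of 0.18. In bulk tissue a change in the number of epithelial cells and a change in keratin RNA per cell cannot be told apart, and the part of tissue makeup in the keratin values was not tested.

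The genes outside the family most like Krt14 across the 12 libraries were picked by Pearson r of log2(RPKM + 1) among 12074 tested genes. They were Ntf5 (r = 0.947), Ermp1 (0.937), Dsg1a (0.916), 1810019J16Rik (0.916) and Wnt6 (0.912). Ntf5 encodes a neurotrophin and Wnt6 a Wnt ligand of surface epithelium. Within the 6 heterozygous libraries their r was 0.861 to 0.956, and within the 6 null libraries 0.788 to 0.926. Among keratins Krt5 (0.949), Krt16 (0.920) and Krt17 (0.90) were closest to Krt14, while Krt20 (-0.038) and Krt18 (-0.042) were the least like it. These r values are descriptive, since the libraries share depth, tissue makeup and the genotype difference.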

How the data were processed

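RNA sequencing covered 12 libraries of the apical molar germ, 6 per genotype, per the labels. Reads were aligned with TopHat2 to mm10, per the submitters' processing notes. How reads were counted, and on which annotation, is not given in the sources used here. A single table deposited by the authors holds log2 RPKM per gene, with values from -11.1 to 16.7 and a floor of 0.9 reads for genes without reads (4897 genes in all libraries). Of 7085 values under 20 reads in genes with no read in at least 6 libraries, 100% were whole reads within 0.02 reads, which gave the depth. Reads of keratins found in every library were estimated from annotated length and need not be whole. A linear RPKM table had been assumed when the design was written.

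Back-transformed levels entered the fit as log2(RPKM + 1). The 12094 genes whose mean reached 1 RPKM were fitted with limma 3.58.1 (R 4.3.3), an intensity trend and genotype as the only term, with Benjamini-Hochberg adjustment at 0.05. A fold on this scale understates low genes. No count test was made on log2 values. Exact permutation used Python 3.11.15 and scipy 1.17.1, with numpy 2.4.6, pandas 2.3.3 and matplotlib 3.10.9. Genes were matched to GENCODE M21 (24987 genes). The test was checked on simulated data.

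Members, gene lists and tests were chosen with earlier results of these data known. Named were all keratins with a mean of 1 RPKM or more, the 5 others with the highest single value, up to 3 genes of smallest p per list, Nfic, and the 5 genes most like Krt14. Other genes named from the marker lists, such as Fabp2, Vil1, Cdx2, Sprr3, Krtdap, Calm4, Ivl and Flg, were chosen after their values were seen. Alternatives without libraries 7, and without libraries 7, 8 and 9, were added after seeing the data. The limit of 3 reads for a gene without reads covers counting error only.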

Additional observations from a re-analysis of the deposited data

Results flagged for a closer look

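In 8 of 40 groups of 6 libraries, 1 library lay far from the other 5 by Dixon's ratio at 95%, where chance gives about 1 in 20 groups. Library 7 gave 5 of them. Krt13 stood at 4.76 RPKM in heterozygous library 7, against 0.610 to 1.03 RPKM in the other heterozygous libraries. In null library 7 it stood at 26.6 RPKM, against 0.444 to 1.17 RPKM. Krt4, its mucosal partner, stood at 3.53 RPKM in heterozygous library 7 and at 18.9 RPKM in null library 7, where the others reached at most 0.823 and 0.877 RPKM. Krt1, the epidermal type II chain, stood at 5.59 RPKM in null library 7, against 0.857 to 1.72 RPKM.

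Heterozygous library 6 gave Krt80 at 44.9 RPKM, against 26.1 to 30.1 RPKM, and Krt27 at 2.86 RPKM, against 0.537 to 0.991 RPKM. Heterozygous library 5 gave Krt75 at 8.42 RPKM, against 2.86 to 3.59 RPKM. A limma term for a genotype difference that differs between libraries 5 to 7 and 8 to 10 called 0 of 12094 genes after Benjamini-Hochberg adjustment, with 78 genes, 2 of them keratins, at an unadjusted p under 0.05.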

How the results depend on the processing

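The count of keratins called was 0 in 31 of 32 alternatives. With library weights it was 3, and 17 over all genes. Leaving out 1 library gave 0 to 0 keratins, 0 to 0 genes of all, a keratin median of 0.26 to 0.46 and 1 to 4 keratins without overlap. The median was 0.097 with no filter on low values (46 keratins) and 0.23 with a pseudocount of 5. Non-overlapping keratins numbered 0 under median scaling and under TPM-like scaling, and 4 without libraries 6 of both genotypes (1.14% of all genes). Without heterozygous replicate 6 they were 4 (1.0% of all genes), and without null replicate 10 they were 3 (0.521%). They were 10 in libraries 5 to 7 (6.56% of all genes) and 4 in libraries 8 to 10 (5.94%), where 3 libraries face 3.

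Of 20 keratins 12 kept their direction in every alternative that tested them. Krt20 turned to -0.080 with a pseudocount of 0.1, -0.0045 under TPM-like scaling, -0.17, -0.18, -0.18 and -0.18 without heterozygous replicates 5, 6, 7 and 10, and -0.39 and -0.47 without null replicates 8 and 9. It was -0.038 in libraries 5 to 7, -0.026 without libraries 8 and 9, -0.028 without libraries 7, 8 and 9, and -1.31 with library weights. Krt8 was -0.64 and Krt19 -0.50 with library weights, and Krt8 was -0.0044 and -0.047 without null replicates 8 and 9 and -0.046 without libraries 7, 8 and 9. Krt13 and Krt4 were -0.31 and -0.27 without null replicate 7, -0.16 and -0.085 in libraries 8 to 10, -0.034 and -0.037 without libraries 7, and -0.032 and -0.0076 without libraries 7, 8 and 9. Krt10 and Krt15 were -0.091 and -0.33 in libraries 8 to 10, and Krt27 was -0.084 without libraries 7, 8 and 9. Over single libraries left out, the highest values were 0.58 for Krt8, 0.52 for Krt20, 0.62 for Krt13 and 0.56 for Krt4. The cause was not tested.

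The series describes 6 pairs of littermates, but the labels do not say that equal numbers mark pairs. With the replicate block the SE was 0.0793 for Krt20, 0.202 for Krt8 and 0.117 for Krt19, and the limma adjusted p was 0.525 for Krt19 and higher for the other two. Deviations of same-numbered libraries correlated at 0.492, 0.00502, 0.310, 0.667, 0.688 and 0.802 for numbers 5 to 10, and 5 of 6 null libraries were closest to their own number. With the replicate block 0 keratins and 0 genes were called (smallest limma adjusted p 0.272 and 0.0872). The keratin median was 0.34, and 1 keratin was without overlap. At an unadjusted p under 0.05 there were 10 keratins and 981 genes. The keratins were the 7 of the main fit with Krt19, Krt6a and Krt6b. Depth limits the lowest of the 29 keratins under a mean of 1 RPKM. Of these, 3 had no read in any library, and a further 7 never reached 3 reads in a library. The other 19 reached 3 reads or more in some library. Among those 19, Krt86 reached at most 7 reads, while Krt222 had 114 to 331 reads in each library.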
